A study of Mus musculus with 6 samples.

Results

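The probes described here carry names that begin with humanlincRNA, on an array of mouse transcripts. Every noncontrol probe with such a name was taken, which gave 1104 of the 60915 probes on the array. Each name holds a locus number and the sign of a strand. The 1104 probes fell at 557 numbered loci, 549 of them on the plus strand and 555 on the minus strand. At 547 loci there was a probe for each strand, and at 10 loci there was a probe for 1 strand. The names give no chromosome, position, gene or probe sequence. Whether a probe matches the human transcript or its mouse counterpart is not stated in the sources used here, so a dark spot does not distinguish a silent locus from a probe that cannot bind the mouse RNA. For comparison the array also held 649 probes named for mouse lincRNAs and 83 named for lincRNA exons.

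Long intergenic noncoding RNAs (lincRNAs) are transcribed from the space between protein-coding genes and are not translated into a known protein. As a class they are known for low abundance, for expression that is restricted to few cell types, and for sequences that diverge between mammals faster than those of messenger RNAs. A locus can be transcribed from either strand or from both, and a probe on 1 strand detects only RNA of the matching sense. Parathyroid hormone (PTH) acts through a G protein-coupled receptor that raises cyclic AMP, and its intermittent administration is known for building bone.

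The RNA came from OCCM-30, an immortalised line of mouse cementoblast-like cells. Cementoblasts lay down cementum, the mineralised layer on the tooth root. All cells were grown to 80% confluence. The PTH cultures received 100 ng/ml PTH in 0.1% acetic acid during the first 6 h of each 24 h cycle, and the control cultures received 0.1% acetic acid over the same 6 h. Both were then kept for 18 h in fresh medium without either agent, and were harvested after 2 cycles. The design text describes the 3 control and 3 PTH samples as biological replicates, and all came from the same line. The files give no gene symbols. The 15 probes with a RefSeq accession were matched to genes, and none was among 10 listed markers of cementoblasts and osteoblasts, the PTH receptor included, so these markers were not analysed here. In RNA from whole cultures, fewer cells that make a transcript and less of it per cell cannot be told apart.

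Values are scaled intensities, that is, the processed spot intensity set to a common 75th percentile on all 6 arrays. A probe counts as detected on an array where its spot is marked as well above background. The brightness of a spot depends on the probe as well as on the RNA, so differences were tested only for a probe against itself across arrays. Intensities of sets of probes are given to describe how bright the spots were, not how abundant the RNAs were. The 3 control arrays and PTH array 1 lay in the first row of the slide, and PTH arrays 2 and 3 in the second. The faintest detected member had an unscaled intensity of 65.1 on PTH array 2 and of 27.8 to 35.9 on the other 5 arrays, so PTH array 2 detected fewer dim spots. Among the negative spots 0.704% were marked as well above background on control array 1, 1.09% on control array 3 and 0% on the others. No member was saturated on any array.

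About 1 member in 4 was detected on a given array. Control arrays 1, 2 and 3 detected 27.9%, 23.1% and 28.5% of the usable members. PTH arrays 1, 2 and 3 detected 25.2%, 16.3% and 23.3%. PTH array 2 was lowest, and control array 2 lay just below PTH arrays 1 and 3, so the groups overlapped. The mean share was 26.5% ± 2.93 (SD, n = 3) in control and 21.6% ± 4.67 (SD, n = 3) in PTH. The difference of -4.90 percentage points had p = 0.3 in an exact two-sided permutation test, in which 3 arrays against 3 cannot go below 0.1. Without PTH array 2 the difference was -2.25 points. The part of that array's higher detection limit in the difference was not tested.

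Members were detected less often than the other lincRNA probes on the same arrays. The share of the mouse-named lincRNA probes detected was 28.6% ± 2.47 (SD, n = 3) in control and 24.6% ± 5.53 (SD, n = 3) in PTH. The human-named share was lower on 6 of 6 arrays, with differences from -4.43 to -1.07 points and a mean of -2.53 ± 1.09 (SD). Of the probes for lincRNA exons, 46.8% ± 3.32 (SD, n = 3) were detected in control and 41.4% ± 8.72 (SD, n = 3) in PTH, and the human-named share differed from these by -20.0 points on average. Of all noncontrol spots, 63.8% ± 2.09 (SD, n = 3) were detected in control and 59.0% ± 5.92 (SD, n = 3) in PTH. Here the gap was the widest of the 3, with the human-named share at -38.7 to -36.0 points from them. Each of these 3 gaps had p = 0.03125 in an exact two-sided sign-flip permutation test over the 6 arrays, the smallest that 6 arrays allow, and 0.03125 after Benjamini-Hochberg adjustment over the 3 comparisons. All 6 arrays read the same probes, so this p measures how steady a gap was over the arrays. It does not measure the spread between probes, and whether the kinds differ beyond these probes was not tested. The gap of the human-named to the mouse-named probes was small beside the spread between arrays, but it had the same direction on every array.

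**Figure D1:**
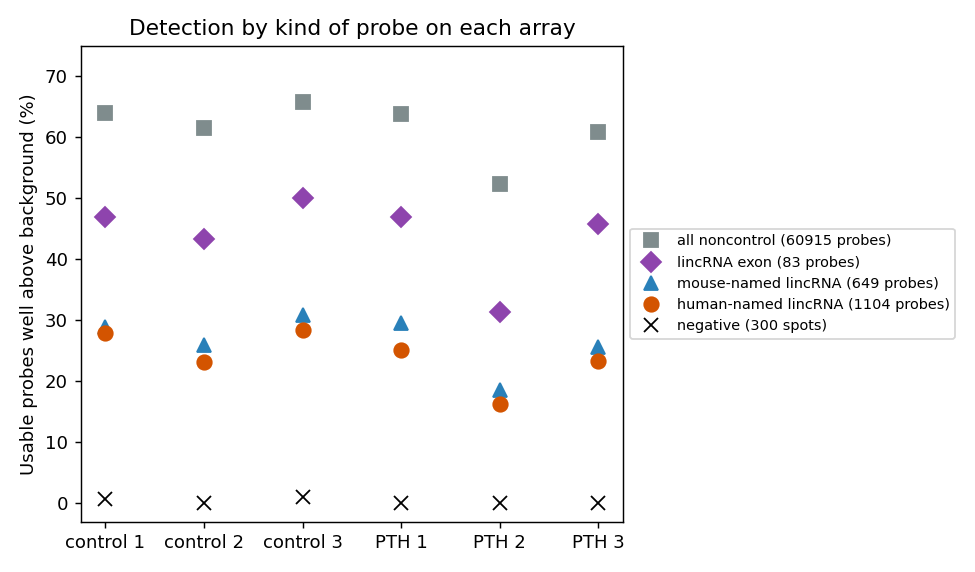
Share of usable probes marked as well above background (y axis, percent) on each of the 6 arrays (x axis), with 1 marker per kind of probe. The human-named lincRNA probes lie between 16.3% and 28.5%, just below the mouse-named probes on every array and far below all noncontrol spots, and every kind plotted except the negative spots dips on PTH array 2.

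Detection tended to hold on all arrays or on none. No array detected 748 of the 1104 members (67.8%), and all 6 arrays detected 177 (16.0%). A further 58 members were detected on 1 array, 21 on 2, 29 on 3, 13 on 4 and 58 on 5. Counting only usable spots, 178 members were detected on every array. Detection on all arrays of 1 group and on none of the other was rare. Of the members, 3 were detected on all control arrays and on no PTH array, and none was detected on at least 2 PTH arrays and on no control array. Another 43 were detected on 1 control array and 14 on 2, with no PTH array detecting them. Detected on 1 PTH array alone were 15 members, 11 of them on PTH array 3. PTH array 2 detected fewer dim spots. These counts were not set against those of all probes, so they are no result about PTH. For humanlincRNA1166- the scaled intensity was 282 on PTH array 3 and 5.2 to 12.1 on the other 5 arrays. For humanlincRNA1918- it was 243 on PTH array 3 and 5.2 to 12.1 on the others. Both signals were seen in 1 culture of 3. Negative spots also reached higher on PTH array 3, where their 99th percentile was 91.5 before scaling, against 25.8 to 36.9 on the other arrays, and 8 of the 11 members did not exceed it.

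Which strand was expressed could be asked at the 547 loci with a probe for each. On every usable array, 77 loci had a signal on the plus strand alone, 65 on the minus strand alone and 18 on both, while 387 (70.7%) had none that was steady on either. So 142 loci (26%) gave steady signal on 1 strand and 3.29% on both. Taken by probe, 95 of 549 plus-strand probes (17.3%) and 83 of 555 minus-strand probes (15.0%) were detected on every usable array. Both signs occurred at similar rates, and most loci with signal gave it on 1 strand. With so few probes detected on either strand, few loci would show both even if the strands were detected independently. The count is therefore no sign that these loci keep to 1 strand. A strand that missed detection may lie just under the limit. When 1 array sufficed, 120 loci had signal on the plus strand alone, 105 on the minus strand alone and 64 on both.

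**Figure D2:**
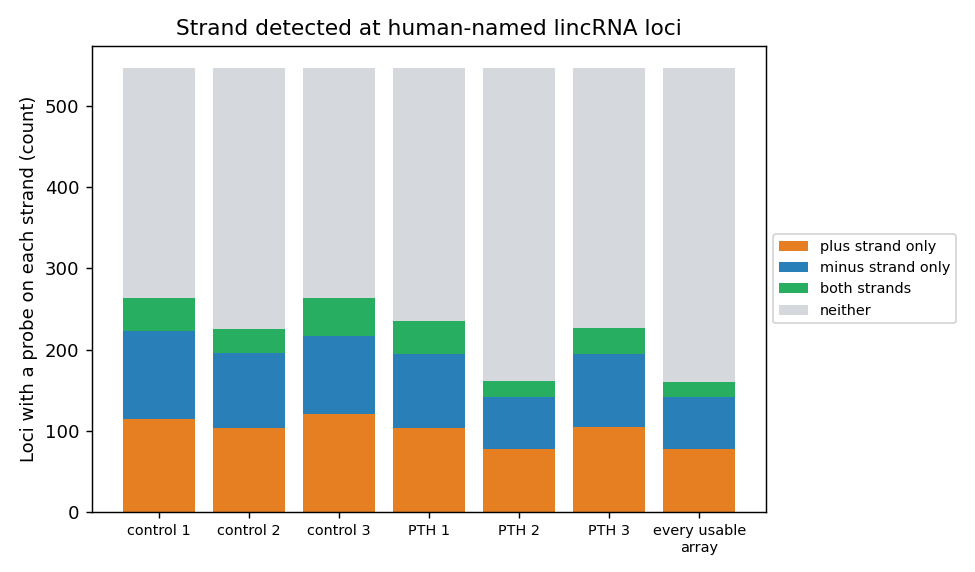
Number of loci (y axis), of the 547 with a probe for each strand, with signal on both strands, on the plus strand alone, on the minus strand alone or on neither, for each array and for every usable array together (x axis). Loci with both strands detected number 19 on PTH array 2, 29 to 47 on the other arrays and 18 when every usable array is required.

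The 18 loci with both strands detected on every usable array were humanlincRNA0318, humanlincRNA0367, humanlincRNA0459, humanlincRNA0520, humanlincRNA0891, humanlincRNA1016, humanlincRNA1050, humanlincRNA1094, humanlincRNA1211, humanlincRNA1230, humanlincRNA1396, humanlincRNA1747, humanlincRNA2113, humanlincRNA2159, humanlincRNA2163, humanlincRNA2397, humanlincRNA2438 and humanlincRNA2473. This count moved with the detection limit: it was 9 when a spot had to exceed the 99th percentile of the negative spots and 74 under the scanner software's laxer mark for a positive and significant spot. On the control arrays alone 26 loci had both strands detected, and on the PTH arrays alone 19. Of the 10 loci with a single probe, 7 were dark on every array. The remaining humanlincRNA0522-, humanlincRNA0957- and humanlincRNA0842- were detected on 4, 3 and 2 arrays.

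Locus numbers do not state position, but neighbouring numbers could be compared. Among 135 pairs of loci with consecutive numbers, the next locus was detected after 10 of 36 detected loci (27.8%) and after 33.3% of 99 undetected ones. Over all 547 loci the share was 29.3%. A locus that followed a detected one was thus not detected more often than the rest.

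A probe was tested for a difference between PTH and control only where all usable arrays of at least 1 group detected it. This left 246 of the 1104 members (22.3%), 125 plus-strand and 121 minus-strand probes, among 37011 probes tested in all. Of the other 858 members, 856 were too dim to test and 2, humanlincRNA1658+ and humanlincRNA2246-, had too few spots without an outlier mark. Of the 246, 178 passed in both groups, 67 passed through the control arrays alone and 1 (humanlincRNA1907-) through the PTH arrays alone. A probe that passed through 1 group is selected for being higher there, so the counts below describe these 246 members and are no evidence on the class.

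The tested members were mostly dim. Their scaled intensity, averaged over the arrays, had quartiles of 66.8, 111 and 267, against 106, 327 and 1656 for all tested probes. Of the 246, 117 lay below 100, 26 above 1000 and 4 above 10000. The SD between replicates had a median of 0.15 on the log2 scale for the members and 0.12 for all tested probes. The 95% interval of a member's difference between the groups reached a median of 0.28 log2 units to either side, or 1.22-fold. With 3 arrays a group, a difference smaller than a member's own reach was not resolved. These intervals are not adjusted for the number of probes tested. After adjustment larger differences were not called either, such as 1.04 for humanlincRNA1739+ (limma adjusted p 0.25). The absence of calls below therefore does not exclude differences above 1.22-fold.

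No member passed the test for a difference between PTH and control. In the limma fit with Benjamini-Hochberg adjustment over all 37011 probes, 0 of 246 members had an adjusted p under 0.05, and the smallest was 0.25. The background was low too, since 0.0054% of all tested probes passed. At an unadjusted p under 0.05 there were 26 members (10.6%), where the background was 15.1%. Of these, 17 were higher in PTH (6.91%, background 8.88%) and 9 were lower (3.66%, background 6.22%). Values of the groups did not overlap for 39 members (15.9%, background 21.3%), 22 higher (8.94%, background 12.6%) and 17 lower (6.91%, background 8.73%). At least 2-fold higher were 4 members (1.63%, background 0.578%), and at least 2-fold lower were 0, where the background was 0.0648%. The median difference was 0.00 with quartiles of -0.12 and 0.14, against 0.01 with quartiles of -0.10 and 0.12 for all tested probes. The members were thus centred on no difference, with a spread like that of the array as a whole. Of the mouse-named lincRNA probes tested, 6.17% of 162 had an unadjusted p under 0.05, and of the exon probes 8.57% of 35.

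The sign of the difference went with brightness. Among the 123 members at or above the median level of 111, 82 were higher in PTH and 41 lower, with a median of 0.07. Among the 123 dimmer ones, 44 were higher and 79 lower, with a median of -0.07. These included the 67 members that passed the filter through the control arrays alone, which were selected for being higher in control. The lower values among the dim members are thus partly set by the filter. Of all tested probes below a level of 111, 59.3% were lower. The bright members kept this direction under each scaling tried, with 77 to 86 of 123 higher. Of all tested probes of that brightness 56.8% were higher in PTH, but 45.6% under quantile normalization. The excess of lower values among the dim members did not hold without PTH array 2, where 63 of 122 were lower, nor among those detected on all 6 arrays, where 28 of 55 were. On the first slide row alone, with PTH array 1 as the only PTH array, 47 of 123 were lower. Among all tested probes of that level the lower share was 50.5%, 50.1% and 44.9% in these settings, so it fell there as among the dim members. The bright members did not follow all probes of their brightness under quantile normalization. The cause was not tested.

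**Figure D3:**
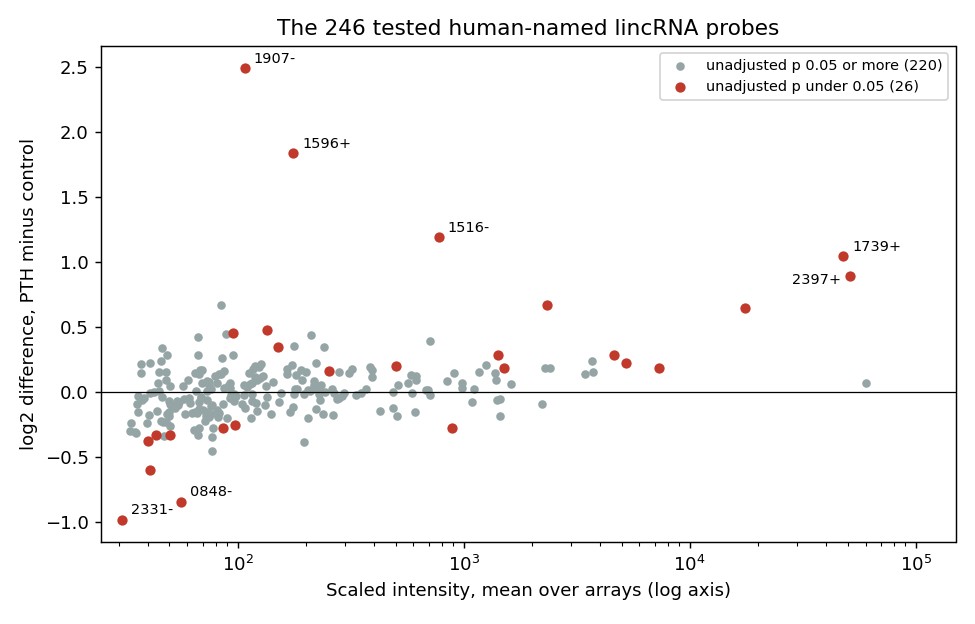
Difference of the tested members between PTH and control (y axis, log2) against their mean scaled intensity over the arrays (x axis, log scale), 1 point per probe for 246 probes. The 26 probes with an unadjusted p under 0.05 are coloured; those below a level of about 100 lie mostly under 0 and the bright ones above it, and humanlincRNA1907- stands highest at 2.49.

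The probes with the smallest p-values are described by their values in every culture. Among the 8 higher in PTH, 7 were detected on all usable arrays in both groups. The groups did not overlap for 7 of them, where 12.6% of all tested probes were higher without overlap. Picking by small p favours probes without overlap, so this count is no support for a difference. Of these 8, 3 were among the 4 brightest members, and 5 lay on the plus strand.

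The probe humanlincRNA2397+ was at 32093, 46496 and 35290 on control arrays 1 to 3 and at 56458, 64953 and 90864 on PTH arrays 1 to 3. Every PTH culture lay above every control culture, with control array 2 the nearest to PTH. The difference was 0.89 (95% interval 0.44 to 1.34), or 1.85-fold, with a limma adjusted p of 0.25. The probe humanlincRNA1739+ was at 25920, 44814 and 31540 in control and at 53058, 62361 and 96993 in PTH. Its cultures fell in the same order as those of humanlincRNA2397+, from control 1, 3 and 2 up to PTH 1, 2 and 3. This order was found for 5 of 244 members (2.05%) and for 1.48% of 36881 tested probes, so it does not link these 2 probes. It differed by 1.04 (0.45 to 1.64), or 2.06-fold, with a limma adjusted p of 0.25. The probe humanlincRNA2330+ was at 12069, 15989 and 14375 in control and at 21050, 18611 and 27055 in PTH. The groups did not overlap here either, and the difference was 0.64 (0.29 to 1.0), or 1.56-fold, with the same adjusted p from limma.

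The probe humanlincRNA0513- showed a smaller difference with little spread. Its scaled intensity was 115, 121 and 108 in control and 176, 143 and 161 in PTH. All PTH cultures were above all control cultures, by 0.47 (0.25 to 0.70) or 1.39-fold, with a limma adjusted p of 0.25. Other probes of this size were humanlincRNA0931+, at 132, 152 and 120 in control and 169, 156 and 187 in PTH, and humanlincRNA1364-, at 1290, 1335 and 1246 in control and 1370, 1728 and 1640 in PTH. The groups came close in both without overlapping, and both had a limma adjusted p of 0.28.

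Other large differences came from fewer usable spots or from groups that overlapped. The probe humanlincRNA1596+ was at 62.6, 166 and 78.3 in control and at 320, 165 and 705 in PTH. PTH array 2 fell just below control array 2, so the groups overlapped. The difference was 1.84 (0.58 to 3.09), or 3.57-fold, with a limma adjusted p of 0.27. The probe humanlincRNA1516- was at 350, 816 and 608 in control and at 912 and 1768 on PTH arrays 2 and 3. Its spot on PTH array 1 carried an outlier mark and was left out, and the difference over the rest was 1.19 (0.24 to 2.14), or 2.28-fold, with a limma adjusted p of 0.29. The probe humanlincRNA1907- was at 30.4 and 67.8 on control arrays 1 and 3, detected on the latter of these alone, and at 268 and 241 on PTH arrays 1 and 2. With outlier marks on control array 2 and PTH array 3, its difference of 2.49 (1.59 to 3.39) rested on 2 arrays a group and had a limma adjusted p of 0.25. This probe was tested through the PTH arrays alone, so it was selected for being higher there. Over the arrays, humanlincRNA1907- and humanlincRNA1596+ varied most among the tested members, with log2 SDs over all arrays of 1.51 and 1.29, a spread that includes the difference between the groups.

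**Figure D4:**
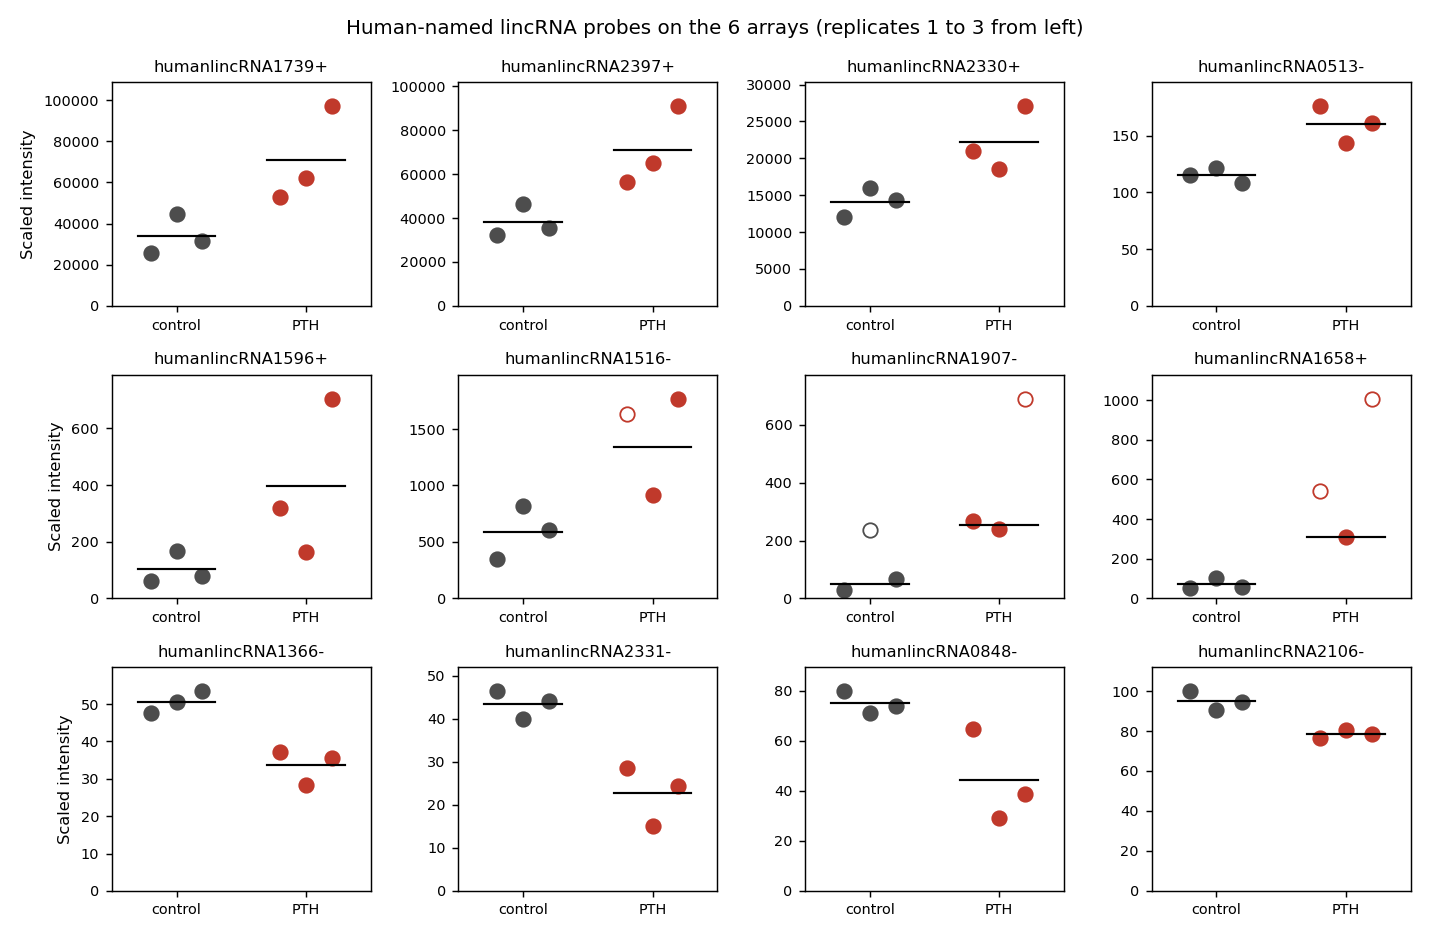
Scaled intensity (y axis, linear from 0, own scale in each panel) of single members in the control and PTH arrays (x axis), 1 circle per array with replicates 1 to 3 from left, and a bar at the mean of the spots used. Open circles are spots left out for an outlier mark; for humanlincRNA1907- they include control array 2 at 237 and PTH array 3 at 690, and in most panels control array 2 is the control nearest to PTH.

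The 8 members lower in PTH with the smallest p-values were mostly dim. Of these, 7 lay on the minus strand, 7 had a control mean under 110, and 3 were detected on all arrays. The rest were tested only because all control arrays detected them, so they were selected for being higher in control. The probe humanlincRNA2331- was at 46.4, 39.9 and 44.1 in control and at 28.6, 15.2 and 24.4 in PTH. All control cultures and no PTH culture detected it, so only a bound can be given: control was at least 1.08-fold higher, taking for each PTH array the lowest signal that was well above background there, and its limma adjusted p was 0.25. The probe humanlincRNA1366- was at 47.7, 50.7 and 53.4 in control and at 37.2, 28.3 and 35.5 in PTH, where 1 culture detected it. The fitted difference was -0.60 (-0.94 to -0.26), with a limma adjusted p of 0.25, and uses signal that was not well above background on 2 of the PTH arrays. The probe humanlincRNA0848- was at 79.9, 71.3 and 74.2 in control and at 64.8, 29.2 and 38.7 in PTH, where 2 cultures detected it. Every PTH value of these 3 probes lay below every control value, and each was lowest on PTH array 2, the array with the higher detection limit.

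The lower probes that all 6 arrays detected differed less. The probe humanlincRNA2106- was at 99.9, 90.6 and 94.6 in control and at 76.4, 80.4 and 78.4 in PTH, a difference of -0.28 (-0.47 to -0.08) with a limma adjusted p of 0.28. The probe humanlincRNA1362- was at 113, 99.8 and 106 in control and at 86.2, 89.5 and 91.9 in PTH, and had a limma adjusted p of 0.29. Neither overlapped between the groups, and neither was lowest on PTH array 2. The probe humanlincRNA0323- was brighter, at 1069, 844 and 1028 in control and 804, 855 and 760 in PTH, and here control array 2 fell among the PTH arrays. The remaining 2, humanlincRNA1841+ and humanlincRNA0319-, differed by -0.38 and -0.33, each with a limma adjusted p of 0.29, and were detected on 1 and 2 of the PTH arrays, so that these values too include signal not well above background.

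Besides humanlincRNA2331-, 2 members were detected in each control culture and in none given PTH. The probe humanlincRNA0220+ was at 45.2, 34.9 and 39.5 in control and at 30.3, 31.3 and 34.3 in PTH. The probe humanlincRNA0900- was at 32.6, 40.1 and 39.8 in control and at 24.9, 28.5 and 39.2 in PTH. Both were dim on every array, and no fold is given for them because the bound fell under 1.

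The 8 brightest members had 7 probes on the plus strand and 1 on the minus strand. All 8 were higher in PTH in the fit as described, 7 without overlap, where the background was 12.6%. The brightest, humanlincRNA2438+, was nearly level, at 58556, 59473 and 59146 in control and 63734, 60608 and 61416 in PTH. Its difference of 0.07 (-0.06 to 0.19) became -0.11 under quantile normalization and -0.12 under quantile normalization after normexp background correction, so its direction is not settled. Next after the 3 bright probes above came humanlincRNA2163+, at 6307, 7633 and 6706 in control and 7740, 7748 and 7937 in PTH. The difference was 0.19, and control array 2 came close to the PTH cultures. The same held for humanlincRNA2242+, at 4467, 5378 and 4710 against 5946, 5400 and 5620, and for humanlincRNA0324-, at 3607, 4901 and 4147 against 4987, 5103 and 5178. The last, humanlincRNA0635+, was at 3502, 3649 and 3527 in control and 3448, 4227 and 4222 in PTH. Its difference of 0.15 came from PTH arrays 2 and 3, and on the first slide row alone it was -0.046.

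At the 18 loci with both strands detected, PTH and control differed little for most probes, and humanlincRNA2397+ stood highest at 0.89. All 36 probes were tested, and their differences ran from -0.20 to 0.89 with a median of 0.08. Of these, 30 were above 0 and 6 below, where 19450 of all 37011 tested probes were above 0. At an unadjusted p under 0.05 were 3 of the 36 (humanlincRNA2397+, humanlincRNA1016- and humanlincRNA2163+), where the background was 15.1%. The groups did not overlap for 6 probes, 5 higher in PTH and 1, humanlincRNA2473-, lower, where the background was 21.3%.

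Whether the strands of a locus changed unequally was tested within arrays, on the log2 intensity of the plus-strand probe minus that of the minus-strand probe. This balance says nothing of which strand is more abundant, but its change between the groups cancels whatever scales both probes alike. Of the 50 lincRNA-named loci with both strands tested, 27 were human-named. Among those 27 loci 1, humanlincRNA1907, had an adjusted p under 0.05 in limma. It was also the only call among the 50 loci (2%), so that share is no separate background. At an unadjusted p under 0.05 were 3 of the 27 loci (11.1%). Of all 50 loci 5 were (10%), and these 5 include the same 3. The median difference was 0.01, with 15 loci towards the plus strand in PTH and 12 towards the minus strand.

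At humanlincRNA1907 the balance was 2.92 and 1.80 on control arrays 1 and 3, and -0.20 and -0.04 on PTH arrays 1 and 2. The plus-strand probe was steady, at 231, 220 and 236 in control and 233, 234 and 223 in PTH, so the difference lay in the minus-strand probe. It was -2.48 (-3.45 to -1.52) with a limma adjusted p of 0.042, on 2 arrays a group. The minus-strand probe entered the test through the PTH arrays alone, so it was selected for being higher there. When only probes detected on all 6 arrays were taken, this locus was not tested and 0 loci were called. With the outlier-marked spots kept, the minus-strand probe was at 237 on control array 2 and 690 on PTH array 3, the difference was -2.16 (-4.01 to -0.32) and the limma adjusted p was 0.35. With 2 usable arrays a group, leaving out any 1 of these 4 arrays left too few to test the locus. On the first slide row alone, with PTH array 1 as the only PTH array, the minus-strand probe differed by 2.56.

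At humanlincRNA2397 the shift went towards the plus strand. The balance was 5.20, 5.39 and 5.19 in control and 5.79, 6.07 and 6.50 in PTH, without overlap. The minus-strand probe was at 872, 1107 and 968 in control and 1020.4, 970 and 1002 in PTH, so that the groups overlapped on this strand but not on the other. The difference in balance was 0.86 (0.37 to 1.34) with a limma adjusted p of 0.092. At humanlincRNA2091 the difference was 0.90 (0.27 to 1.52) with a limma adjusted p of 0.18. Its plus-strand probe was at 61.0, 70.9 and 70.4 in control and 159, 63.7 and 120.4 in PTH, and its minus-strand probe at 59.5, 42.2 and 56.7 in control and 52.3, 36.7 and 46.1 in PTH. The other 24 loci differed by -0.35 to 0.39, and next in order of p were humanlincRNA0459, humanlincRNA1094 and humanlincRNA1747, at -0.35, 0.39 and -0.24.

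**Figure D5:**
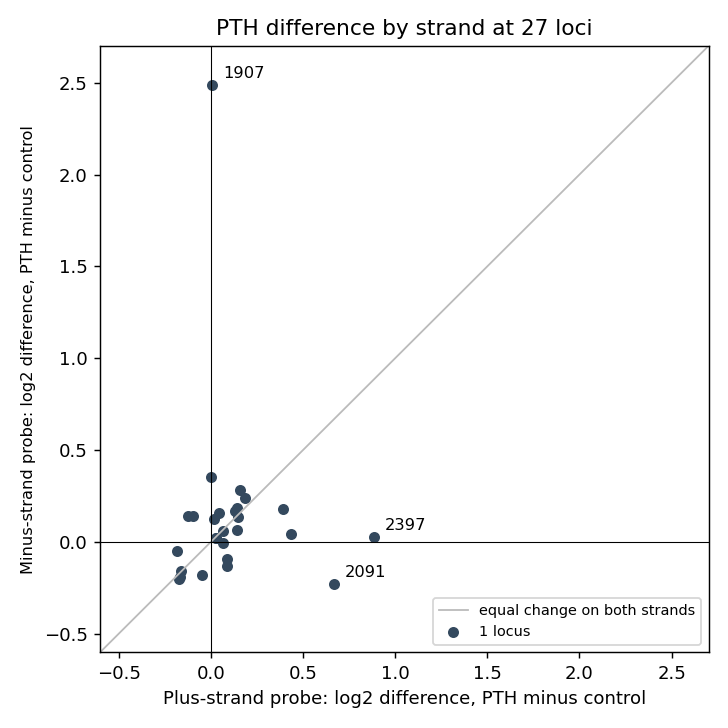
Difference between PTH and control (log2) of the plus-strand probe (x axis) and of the minus-strand probe (y axis) at the 27 human-named loci with both strands tested, 1 point per locus, with a diagonal for equal change. Most loci lie near the origin; humanlincRNA1907 lies high above the diagonal with its plus-strand probe at 0.01, and humanlincRNA2397 lies below it.

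Among the fits that left out a single array, the number of calls turned on control array 2. Without it, 22 of the 246 members had a limma adjusted p under 0.05 (8.94%, where the background was 15.1%), 18 higher in PTH and 4 lower, against background shares of 8.58% and 6.48%. At an unadjusted p under 0.05 there were then 55 members (22.4%, background 33.1%). Array weights put 0.31 on control array 2, 0.37 on control array 1 and 13.6 on control array 3. Among the controls that fit thus rested mostly on array 3. It gave 59 members at an adjusted p under 0.05 (24%, background 32.9%) and 89 at an unadjusted p under 0.05 (36.2%, background 45.8%). With no filter on dim probes, 51 of 1102 members had an unadjusted p under 0.05 (4.63%, background 11%). The share of members lay below the background in each of these limma fits. Among the 22 called without control array 2 were humanlincRNA0847- at 0.95 with an adjusted p of 0.019, humanlincRNA2397+ at 1.04 with 0.020 and humanlincRNA1739+ at 1.26 with 0.021. Of the 21 with a usable spot on it, control array 2 lay between the other control arrays and the PTH mean for 14 and beyond the PTH mean for 7. These probes were picked by the fit without that array and were not called with it. The pick itself favours such positions, and they were not counted over all probes. Leaving out any other array gave 0 calls. The part of control array 2 in the main result beyond this was not tested. The labels give no ground for leaving it out, so the fit with all 6 arrays is the one reported.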

How the data were processed

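Cy3-labelled RNA of 6 cultures was hybridised to 6 1-colour arrays. The headers name Agilent Feature Extraction 11.0.1.1 and the build mm9. The deposited values used are processed spot intensities, background-corrected within each array by the authors' scanner software and not normalised between arrays, per the file headers. Control spots, negative spots and outlier-marked spots were left out. The log2 intensity minus each array's 75th percentile was fitted with limma 3.58.1 (R 4.3.3, intensity trend, two-sided), over probes well above background on all usable arrays of at least 1 group, with at least 2 usable arrays a group. The strand balance was fitted without a trend. Other values used Python 3.11.15. The scripts were tested on simulated data. The number of arrays limits the precision.

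Named are the 8 higher and 8 lower probes of smallest p, those at least 2-fold different, the 8 brightest, the loci with both strands detected, the probes detected in 1 group alone, and 3 loci per direction of the strand balance. Probes called without control array 2, and single probes detected on 1 PTH array, were named after their values were seen. The members and lists were chosen with earlier results of these data known. The labels state no pairing of arrays, and none was used in the main fit. Deviations of same-numbered arrays from their group means correlated at 0.19, -0.03 and -0.13. With 3 arrays a group these values cannot exclude a pairing. Alternatives changed the scaling, background correction, filters, arrays, weights and blocks. For normexp the median spot signal was used. Accessions were matched, without versions, to RefSeq's GRCm38.p6 gene table, and 15 of 15 matched.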

Additional observations from a re-analysis of the deposited data

Results flagged for a closer look

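The probe humanlincRNA1658+ lay outside the comparison, since its spots on PTH arrays 1 and 3 carried an outlier mark, which left fewer usable arrays than the test required. With all spots kept, it was detected on all 6 arrays, at 52.2, 103 and 59.4 in control and at 540, 309 and 1006 in PTH. Every PTH culture was above every control culture, by 3.01 on the log2 scale (95% interval 2.02 to 4.01) or 8.07-fold, with a limma adjusted p of 0.27. Its arrays fell in the same order as those of humanlincRNA1516- and humanlincRNA1907- with their marked spots kept, from control 1, 3 and 2 up to PTH 2, 1 and 3. How common this order was over all probes with marked spots kept is not reported, so it does not link these probes. In that setting humanlincRNA1516- differed by 1.31 (limma adjusted p 0.27) and humanlincRNA1907- by 2.17 (0.48 to 3.86, limma adjusted p 0.29), both without overlap. The scanner software marked 10 spots on 4 members in all, 5 of them on humanlincRNA2246-, whose groups overlapped at 1427, 3375 and 2626 in control and 2132, 2576 and 7001 in PTH. Whether the marks reflect flaws in the spots was not tested.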

How the results depend on the processing

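The 0 calls among the members held under every alternative except array weights and leaving out arrays. Array weights gave 59 (39 higher, 20 lower), or 24% where the background was 32.9%. Leaving out arrays gave 0 to 22, and the 22 were 8.94% where the background was 15.1%. Array weights put 13.6 on control array 3, 0.37 on control array 1 and 0.31 on control array 2. The 26 members at an unadjusted p under 0.05 became 89 with array weights, 51 of 1102 with no dim filter, 15 with the slide row as a block, 16 on the first slide row alone (chosen after seeing the data) and 12 to 55 when arrays were left out: 55 without control array 2, 12 without control array 3, 14 without control array 1 and 16 without PTH array 3. With the replicate number as a block it was 28. Shares of the members were 36.2% with array weights, 4.63% with no dim filter and 22.4% without control array 2. The backgrounds were 45.8%, 11% and 33.1%.

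The 1 call in strand balance became 4 with array weights, 3 with the replicate block, and 0 with probes detected on all 6 arrays, with probes detected on at least 1 array, with outlier-marked spots kept, with no dim filter, with the slide row as a block and on the first slide row alone. It was 0 to 1 when arrays were left out, and at 0 the locus had too few usable arrays to be tested. The 18 loci with both strands became 74 with the laxer mark, 9 with the 99th percentile, 64 when 1 array sufficed, and 18 to 25 when arrays were left out, 25 of them without PTH array 2. The difference in detected share stayed below 0, from -6.67 to -2.25 points when arrays were left out. Of 22 named probes under up to 18 settings, direction turned for humanlincRNA2438+ (-0.12 with normexp and quantile normalization, -0.11 with quantile normalization) and humanlincRNA0635+ (-0.046 with the slide row block and on the first slide row alone). A further 34 values became calls, all with array weights or without control array 2.

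The cause of these changes was not tested.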

Other observations

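Among the 11 members that PTH array 3 alone detected, humanlincRNA1923+, humanlincRNA2054+ and humanlincRNA2252+ had a scaled intensity of 105, 83.6 and 87.3 on that array and of 5.2 to 12.3 on the other 5. The last 2 of these lay under the 99th percentile of the negative spots on PTH array 3, which was 95.3 on the same scale. The 4 members that PTH array 1 alone detected were at 32.6 to 36.8 there, and 2 of them exceeded that percentile on their array. At humanlincRNA2252 the plus-strand probe was detected on PTH array 3 alone and the minus-strand probe on PTH array 1 alone.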
